A study of Mus musculus with 6 samples.

Results

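The genes described here are 9 that encode secreted proteins of host defence: the acute-phase genes Saa3, Lcn2 and Hp, the chitinase-like genes Chil1 and Chil3, the protease inhibitor genes Slpi and Cst3, and the lysozyme genes Lyz1 and Lyz2. They were found by gene symbol, and all 9 were among the 15824 genes listed and the 11817 genes tested. RNA was sequenced from alveolar macrophages, the phagocytes of the lung airspaces, which were taken by flow cytometry from mouse lungs at 8 weeks of age. There were 3 wild-type libraries (WT) and 3 libraries with a knockout of Men1 (KO), the gene for menin, a scaffold of histone methyltransferase complexes. No other allele and no agent is named for either group. Not given in the sources used here are the cell types in which Men1 was deleted, the sexes of the mice, and whether each library had its own mouse. A p-value below thus reflects the spread among these libraries alone, which may be technical. The 9 genes were chosen with their difference between KO and WT already known. That difference is therefore described without a test, and neither its size nor the number of genes that share its direction is used as support for anything.

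Acute-phase proteins are plasma and tissue proteins made in larger amounts when interleukin-6, interleukin-1 or tumour necrosis factor acts on a cell through STAT3, C/EBP and NF-kB factors. The liver is their main source, and macrophages and epithelium make some of them locally. Chitinase-like proteins have the fold of chitinases but no chitinase activity, and Chil3 (Ym1) is widely used as a marker of alveolar macrophages. Lysozyme cuts the cell wall of bacteria, while secretory leukocyte protease inhibitor and cystatin C restrain neutrophil elastase and lysosomal cathepsins.

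Total counts lay between 19955232 and 20151985 per library. Men1 had 594 to 639 counts in WT libraries and 149 to 165 in KO libraries, so the libraries followed their labels. The summed counts of the 4 Y-linked genes Ddx3y, Eif2s3y, Kdm5d and Uty were 3320 to 3445 in WT and 0 to 2 in KO. That is the pattern of male cells in WT and female cells in KO, although the sexes are not given. Genotype and this difference cannot be told apart in any comparison below. Of 16 listed markers of alveolar macrophages, 13 were in the table, and their summed level was 2481 to 2523 CPM (counts scaled to a library of fixed size with TMM factors) in WT and 3301 to 3319 CPM in KO. That sum came mostly from Lpl and Marco, which other macrophages also express. Ear1, Ear2, Fabp1 and Plet1 had fewer than 1 CPM in both groups, and Siglecf, a lectin widely used to define alveolar macrophages, had 2.06 ± 0.381 CPM (SD, n = 3) in WT and 1.34 ± 0.154 CPM (SD, n = 3) in KO. These 5 were named after their values were seen. The rest of the list is given so that it is complete, as means in WT and KO. Atp6v0d2 was at 119 and 60.8 CPM, Mrc1 at 95.4 and 131 CPM, and Ccl6 at 61.0 and 144 CPM. Itgax was at 53.0 and 43.8 CPM, Pparg at 19.0 and 13.1 CPM, and Trim29 at 0.425 and 1.63 CPM. Several defining markers of the labelled cell type were thus at or near 0 in both groups, while other listed markers were not. General macrophage genes such as Csf1r, the receptor for colony-stimulating factor 1, were abundant, at 1432 ± 17.6 CPM for WT and 2738 ± 28.5 CPM for KO (SD, n = 3). In these bulk samples, fewer cells of a type and less RNA per cell cannot be told apart.

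The promoter sequences of Saa3 and Chil1, the 2 of these genes with the highest fold changes, and of the neighbouring lysozyme genes are shown because the first pair differed most between the groups and the second pair least. Each is the 250 bases before the start site, from RefSeq with build GRCm38.p6, and 8 of the 9 genes had such a window (Hp is the exception). Capitals mark matches to the C/EBP motif TTNNGNAA, the STAT motif TTCNNNGAA and the NF-kB consensus, searched on both strands. The windows are chr7:46715677-46715926 on the minus strand for Saa3, chr1:134181906-134182155 on the plus strand for Chil1, chr10:117292869-117293118 on the minus strand for Lyz1 and chr10:117282273-117282522 on the minus strand for Lyz2. The Saa3 window lies inside the annotated span of its gene (46711998 to 46719615), so its start site is not the outermost one. The windows of Chil1, Lyz1 and Lyz2 adjoin the ends of their genes.
Saa3: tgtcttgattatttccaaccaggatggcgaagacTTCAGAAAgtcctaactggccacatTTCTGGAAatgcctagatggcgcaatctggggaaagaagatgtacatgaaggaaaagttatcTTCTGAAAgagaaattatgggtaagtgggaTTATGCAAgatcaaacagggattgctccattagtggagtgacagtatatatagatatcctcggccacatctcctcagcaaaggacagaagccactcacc
Chil1: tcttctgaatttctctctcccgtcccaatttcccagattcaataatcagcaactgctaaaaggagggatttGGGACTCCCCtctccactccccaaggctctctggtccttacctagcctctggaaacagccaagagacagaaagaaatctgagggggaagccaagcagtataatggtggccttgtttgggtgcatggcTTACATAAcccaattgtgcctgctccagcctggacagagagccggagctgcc
Lyz1: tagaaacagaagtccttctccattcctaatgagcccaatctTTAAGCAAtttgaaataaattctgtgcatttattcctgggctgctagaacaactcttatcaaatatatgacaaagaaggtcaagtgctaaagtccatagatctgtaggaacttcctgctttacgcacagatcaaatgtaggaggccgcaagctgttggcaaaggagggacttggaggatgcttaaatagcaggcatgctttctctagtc
Lyz2: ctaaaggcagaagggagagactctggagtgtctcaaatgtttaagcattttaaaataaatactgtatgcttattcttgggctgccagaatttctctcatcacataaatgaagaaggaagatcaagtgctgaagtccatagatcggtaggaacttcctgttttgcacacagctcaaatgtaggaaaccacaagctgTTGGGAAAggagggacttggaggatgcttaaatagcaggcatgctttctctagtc

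The Saa3 window held 4 matches to the C/EBP motif, at 216, 191, 129 and 99 bases before the start site, and 0.591% of all 32851 windows held at least as many. That share was taken for the window with the most matches among these genes, and the window length was shortened after a first scan. It is thus no measure of how rare such a number is, and nothing is read from it. The windows of Chil3 and Slpi held 3 matches to this motif each. At least 1 such match occurred in 36.8% of all windows and in 7 of the 8 windows of these genes, including both lysozyme genes, so genes with large and with small differences both held it. The NF-kB consensus occurred in 3.90% of all windows and, among these genes, in that of Chil1, at 179 bases before the start site. The STAT motif occurred in 7.02% of all windows and, among these genes, in that of Chil3. The AP-1 motif TGANTCA was in 6.75% and the TATA box TATAAA, searched on the gene's strand, in 7.59% of all windows, and neither was in a window of these genes. The C/EBP and STAT motifs can overlap each other. Such matches are descriptions of letters, not of binding.

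Saa3 was the acute-phase gene with the highest level and, of the 3, the highest fold change. It encodes serum amyloid A3, the serum amyloid A protein that mouse macrophages make locally, and lies on chromosome 7 from 46711998 to 46719615 (GRCm38.p6, gene ID 20210). Its counts were 7583, 7928 and 7811 in WT replicates 1, 2 and 3 and 84898, 84825 and 85191 in KO replicates 1, 2 and 3. The 3 KO libraries lay far above the 3 WT libraries and close to each other. Scaled to library size, the WT mean was 381 ± 8.71 CPM and the KO mean 4327 ± 16.3 CPM (SD, n = 3), an 11.4-fold difference with a log2 fold change of 3.51 (SE 0.0185). Saa3 took 0.0388% ± 0.000876 of all counts in WT and 0.424% ± 0.000740 in KO (SD, n = 3). Saa1, another serum amyloid A gene 20882 bases away from Saa3, had 0 counts in WT and 2 counts in KO over all libraries, and Saa2 and Saa4 are not analysed here. The coding sequence of Saa3 shared 76.2% of its aligned bases with Saa1 and 74.5% with Saa2 in the GENCODE M21 transcripts, and 1.78% of the windows of 50 bases in its transcript also occurred in Saa1 and 0 in Saa2.

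Lcn2 and Hp, the other acute-phase genes, had lower levels and similar fold changes. Lcn2 encodes lipocalin-2, which binds bacterial siderophores and so withholds iron from bacteria (chromosome 2 from 32384637 to 32387739). Its counts were 143, 145 and 145 in WT replicates 1 to 3 and 1015, 993 and 1034 in KO replicates 1 to 3. The groups did not overlap, and the WT mean was 7.07 ± 0.0535 CPM against 51.6 ± 0.981 CPM in KO (SD, n = 3), 7.30-fold higher (log2 2.87, SE 0.0590). Hp encodes haptoglobin, which captures free haemoglobin (chromosome 8 from 109575128 to 109579172). Its counts were 761, 746 and 749 in WT and 5004, 5185 and 5135 in KO, again without overlap. The WT mean was 36.8 ± 0.441 CPM against 260 ± 5.59 CPM in KO (SD, n = 3), 7.06-fold higher (log2 2.82, SE 0.0315).

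Chil1 stood apart from the others because it was nearly undetected in WT. It encodes the chitinase-like protein BRP-39, the mouse counterpart of YKL-40, and lies on chromosome 1 from 134182156 to 134190031. Its counts were 2, 0 and 2 in WT replicates 1, 2 and 3 and 1377, 1387 and 1356 in KO replicates 1, 2 and 3. The count of 0 in WT replicate 2 allows up to 3 counts, which is 0.147 CPM in that library. With 4 counts in all WT libraries and 4120 in all KO libraries, the ratio after scaling to effective library size was 1071-fold (95% interval 418 to 3932, exact binomial, for counting error only). The mean in KO was 69.9 ± 0.887 CPM (SD, n = 3), so Chil1 passed the low-count filter through the KO group alone. Its nearest chitinase-family neighbour, Chit1, had 0 counts in WT and 2 counts in KO over all libraries, and none of the 4 protein-coding genes within 100 kb of Chil1 passed the filter.

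Chil3, the other chitinase-like gene, was at a low level in both groups. Its counts were 135, 140 and 150 in WT replicates 1 to 3 and 260, 276 and 285 in KO replicates 1 to 3. KO libraries were all higher, and the WT mean was 6.94 ± 0.349 CPM against 13.9 ± 0.676 CPM in KO (SD, n = 3), 2.01-fold higher (log2 1.01, SE 0.0840). Chil3 lies on chromosome 3 from 106147554 to 106167564. It has a close copy, Chil4, whose coding sequence matched it at 95.3% of aligned bases and whose transcript held 18.5% of its windows of 50 bases. The counts of Chil3 could include reads of Chil4, which is not analysed here.

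**Figure D1:**
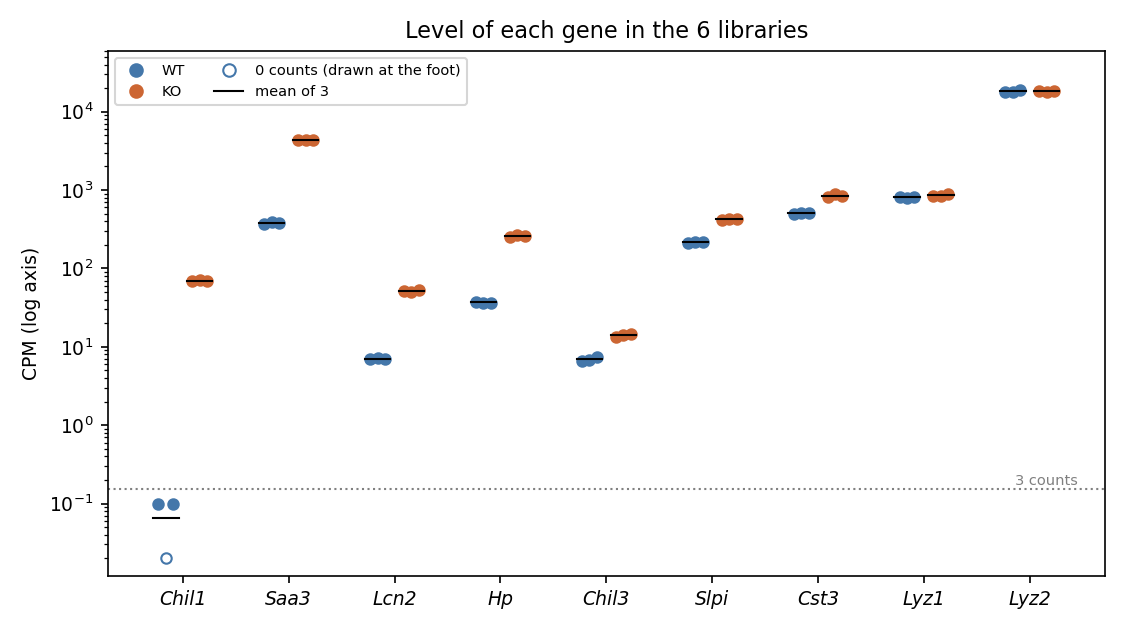
CPM (log axis) of each of the 9 genes in the 3 WT libraries (blue) and the 3 KO libraries (orange), ordered by fold change, with the mean of each group as a line and a dotted line at the highest level that 3 counts have in any library. Replicates lie close together for every gene except Chil1 in WT, where 2 libraries have 2 counts each and 1 has none (open point, drawn at the foot because 0 has no place on a log axis), and the groups are apart for every gene except Lyz2.

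The inhibitor genes Slpi and Cst3 were abundant in both groups and higher in every KO library. Slpi, encoding secretory leukocyte protease inhibitor (chromosome 2 from 164354070 to 164356507), had 4347, 4485 and 4503 counts in WT and 8273, 8381 and 8470 in KO. Its mean of 427 ± 5.97 CPM in KO compared with 218 ± 3.86 CPM in WT (SD, n = 3), 1.96-fold higher (log2 0.97, SE 0.0223). Cst3, encoding cystatin C (chromosome 2 from 148871722 to 148875512), had 10137, 10446 and 10600 counts in WT and 16147, 17212 and 16600 in KO. Its mean of 848 ± 29.9 CPM in KO compared with 509 ± 10.3 CPM in WT (SD, n = 3), 1.67-fold higher (log2 0.74, SE 0.0216). The fold was smaller for Cst3 than for Slpi, the difference in CPM was larger, and for both genes it was many times the SD within a group. None of the 6 protein-coding genes within 100 kb of Cst3, all of the cystatin family, is analysed here.

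The lysozyme genes hardly differed between the groups. Lyz2, encoding the lysozyme of macrophages (chromosome 10 from 117277541 to 117282272), had 362718, 364133 and 388818 counts in WT replicates 1, 2 and 3 and 358879, 348780 and 363936 in KO replicates 1, 2 and 3. The groups overlapped after scaling, with a WT mean of 18215 ± 645 CPM, a KO mean of 18191 ± 362 CPM (SD, n = 3) and a log2 fold change of -0.00193 (SE 0.0170). Lyz1 (chromosome 10 from 117287795 to 117292868), encoding the lysozyme of Paneth cells, had 16735, 15942 and 16728 counts in WT and 16563, 16662 and 17328 in KO, with the KO range of counts overlapping the WT range. After scaling, KO libraries were higher, at 858 ± 21.9 CPM against 807 ± 20.5 CPM in WT (SD, n = 3), a log2 fold change of 0.09 (SE 0.0202) that turned to -0.05 on the TPM scale. On that scale, which divides by transcript length and by the sum over all transcripts, the median of the genes tested was itself -0.12, so Lyz1 lay above that median on both scales, and Lyz2 at -0.14 lay near it.

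The lysozyme genes are copies 5523 bases apart, and their coding sequences, each 447 bases long, differed at 22 positions (95.1% identity). Of the windows of 50 bases in the Lyz1 transcript, 16.1% also occurred in that of Lyz2. The stretch with the most differences is shown, where reads of the copies are easiest to tell apart. It is bases 61 to 120 of the coding sequence in GENCODE M21, with the 9 of the 22 positions that differ there in capitals.
Lyz1: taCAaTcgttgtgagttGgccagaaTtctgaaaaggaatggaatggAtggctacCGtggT
Lyz2: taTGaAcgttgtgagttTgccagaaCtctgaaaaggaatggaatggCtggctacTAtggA
Lyz1 had 4.43 ± 0.162 counts per 100 counts of Lyz2 in WT and 4.72 ± 0.0893 in KO (SD, n = 3), and the ranges of 4.30 to 4.61 and 4.62 to 4.78 nearly touched. How many Lyz1 counts came from Lyz2 reads was not tested, and the counting method is not stated in the labels. With the counts of both genes summed before the fit, the log2 fold change was 0.00206.

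In order of fitted fold change among the 11817 genes tested, Chil1 was at rank 3, Saa3 at rank 17, Lcn2 at rank 26 and Hp at rank 27. Chil3 was at rank 382, Slpi at rank 410 and Cst3 at rank 691. Lyz1 was at rank 4673 and Lyz2 at rank 5968, close to the middle. The fitted value of Chil1, a log2 fold change of 9.93, depends on the small count added to WT values that are near 0, and so does its rank. KO libraries were all above WT libraries in CPM for 8 of the 9 genes, a state that 35.4% of all tested genes shared (35.8% had all KO libraries below, and 71.2% did not overlap in either direction), and 5 of the 9 were at least 2-fold higher, as were 3.26% of all tested genes. Nothing is read from these counts, because the genes were chosen on this difference. The median log2 fold change was 1.01 for the 9 genes and 0.00143 for all genes tested.

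**Figure D2:**
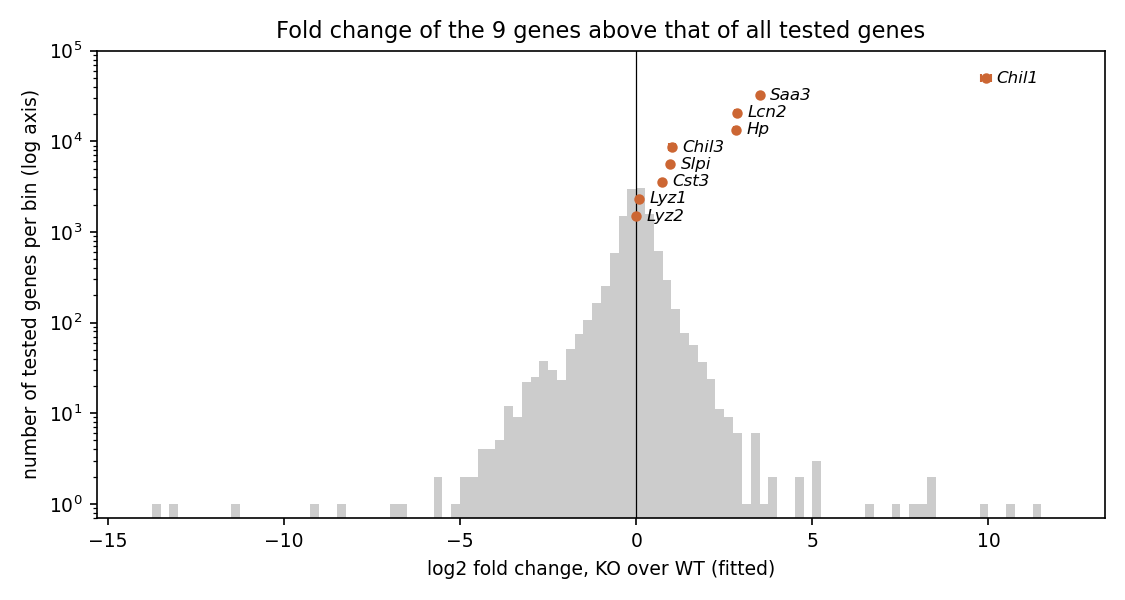
Fitted log2 fold change of the 9 genes (orange points with SE bars, height without meaning) above the distribution for all 11817 tested genes (grey bars, number per bin on a log axis). Chil1 lies at 9.93 and Saa3 at 3.51, in the sparse upper tail, Lcn2 and Hp follow, Chil3, Slpi and Cst3 lie between 0.74 and 1.01, and both lysozyme genes sit at the peak near 0.

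Together, the 9 genes took 2.02%, 2.02% and 2.13% of all counts in WT replicates 1, 2 and 3 and 2.46%, 2.42% and 2.49% in KO replicates 1, 2 and 3. The mean was 2.06% ± 0.0642 in WT and 2.45% ± 0.0350 in KO (SD, n = 3), a ratio of 1.19. Lyz2 alone made up 90.3% of these counts in WT and 72.6% in KO. Without Lyz2, the other 8 genes took 0.200% ± 0.00134 in WT and 0.672% ± 0.00529 in KO (SD, n = 3), 3.35 times as much. Saa3 accounted for most of that difference, with 0.385 of 0.472 percentage points. It made up 1.89% of the counts of the 9 genes in WT and 17.3% in KO, while Chil1 made up 0.279% of them and Lcn2 0.206% in KO.

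**Figure D3:**
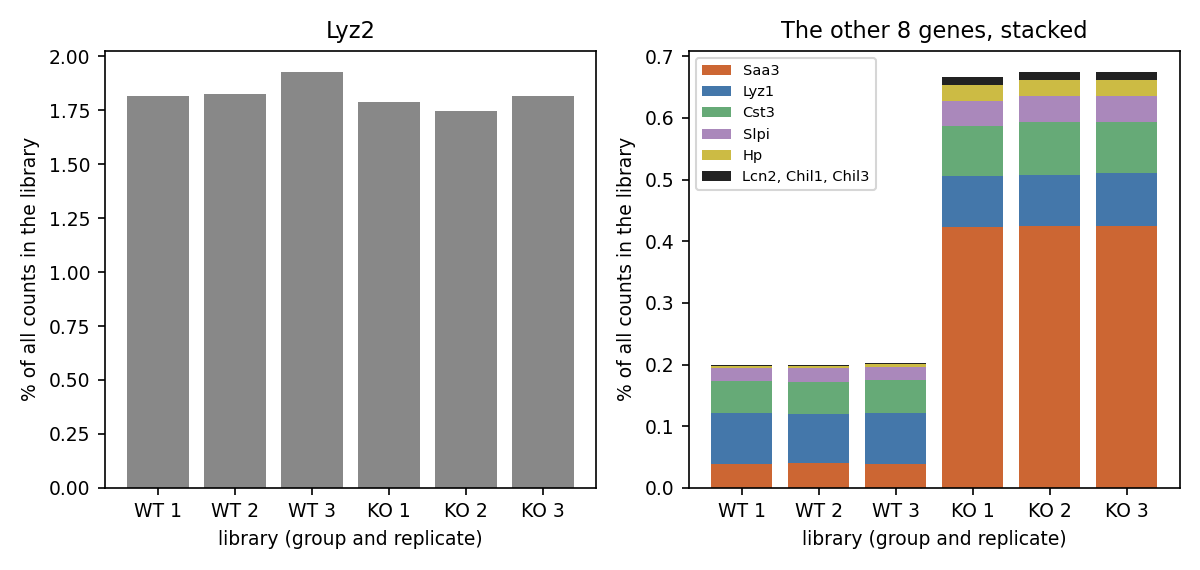
Percent of all counts taken by Lyz2 (left, grey bars) and by the other 8 genes (right, stacked by gene) in each of the 6 libraries. Lyz2 takes 1.74% to 1.93% in every library, whereas the stack on the right reaches 0.200% to 0.202% in WT and 0.666% to 0.675% in KO, most of it Saa3 in KO.

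Levels of different genes can be compared on the TPM scale, which corrects for transcript length. In WT, the order was Lyz2 at 36157 ± 1131 TPM, Saa3 at 1613 ± 5.57, Cst3 at 1582 ± 13.7, Lyz1 at 1244 ± 36.2, Slpi at 577 ± 4.05, Hp at 52.3 ± 0.903, Lcn2 at 19.6 ± 0.110, Chil3 at 8.26 ± 0.382 and Chil1 at 0.0700 ± 0.0608 TPM (SD, n = 3). Saa3 and Cst3 were the closest neighbours, and even their libraries did not overlap (lowest Saa3 1607 TPM, highest Cst3 1596 TPM). In KO, the order began with Lyz2 at 32697 ± 615 TPM and Saa3 at 16577 ± 140 TPM, and ended with Chil1 at 67.1 ± 1.02 TPM above Chil3 at 15.1 ± 0.685 TPM (SD, n = 3). No neighbours in that order overlapped in KO either. The last place passed from Chil1 to Chil3, and the other 7 genes kept their places. Among all listed genes, Lyz2 was at rank 1 in WT and 2 in KO, Saa3 at rank 90 and 5, Cst3 at 92 and 56, Slpi at 258 and 145, and Hp at 2452 and 431. Lyz1 barely moved in rank, from 124 to 126, and Chil3 was at rank 7523 in WT and 5588 in KO.

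**Figure D4:**
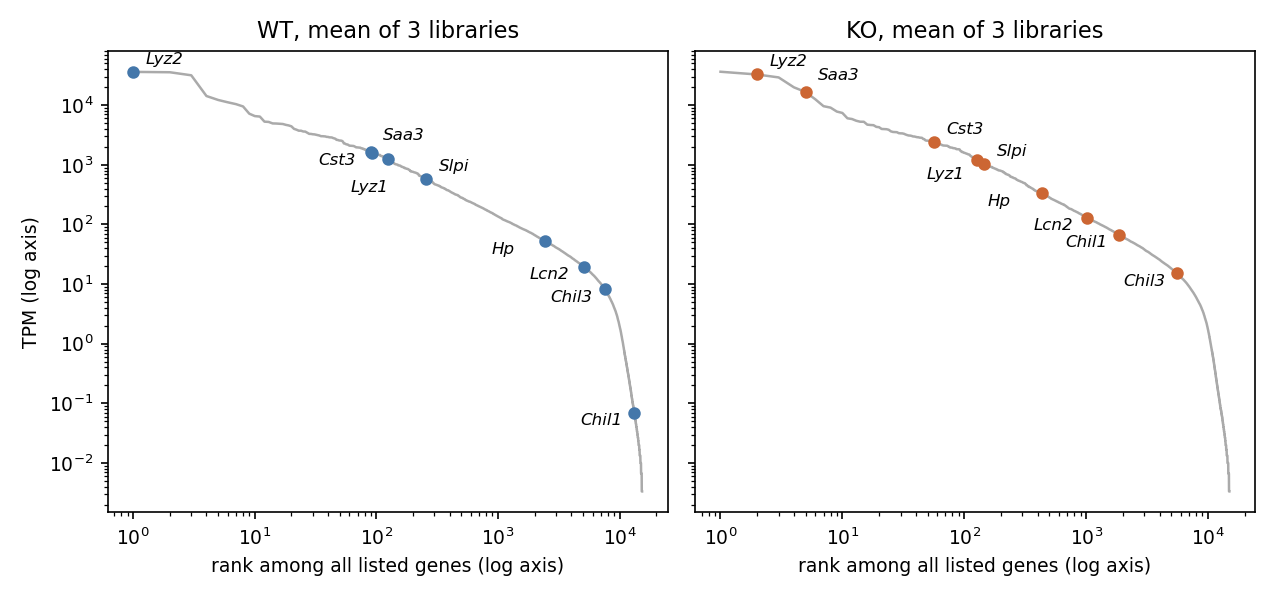
Mean TPM of all listed genes against their rank (grey lines, both axes log) in WT (left) and KO (right), with the 9 genes marked. Saa3 is at rank 90 in WT and 5 in KO, Chil1 at 13166 and 1866, Lyz2 at 1 and 2, and Lyz1 at 124 and 126.

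The spread between libraries was compared with counting error. For Lcn2, the coefficient of variation was 0.757% in WT, where counting error alone gives 8.32%, and 1.90% in KO against 3.14%. For Chil3 in WT it was 5.03% against 8.40%, and for Hp in WT it was likewise below the counting error of 3.65%. In WT the spread was above counting error for Lyz2 (3.54% against 0.164%), Lyz1 (2.54% against 0.779%), Saa3 (2.29% against 1.13%), Cst3 (2.03% against 0.981%) and, by a small margin, Slpi (1.77%).

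The genes whose profile over the 6 libraries was nearest to that of Saa3, by Euclidean distance of log2 CPM relative to the WT mean among the 9569 genes that averaged 5 CPM or more, were Cfb, encoding complement factor B (distance 0.0910), the interferon-induced gene Ifi44 (0.218) and Ctse, encoding cathepsin E (0.400). Those nearest to Lyz2 were Nubp2 (0.0322), Ascc2 (0.0333) and Asap1 (0.0359), and those nearest to Cst3 were Fscn1 (0.0504), Tmem250-ps (0.0636) and Alpk1 (0.0651). Cfb rose from 23.98 ± 0.904 to 267 ± 2.35 CPM (SD, n = 3).

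Other acute-phase genes were called in both directions. Of 25 listed, 16 were in the table and 9 were tested, and 3 rose and 5 fell, with a median log2 fold change of -0.46. Over all genes tested, 69.2% passed an adjusted p of 0.05, 34.4% higher and 34.9% lower in KO. The genes that rose were Cfb, C3, encoding the central complement component (181 ± 6.89 to 498 ± 1.72 CPM; log2 1.46, adjusted p = 2.16e-34), and Cp, encoding the copper-binding ferroxidase ceruloplasmin (6.07 ± 0.129 to 34.8 ± 0.325 CPM; log2 2.52, adjusted p = 1.12e-27). The metallothionein genes Mt1 and Mt2, whose products bind zinc and copper, fell to 150 ± 4.79 and 33.4 ± 2.30 CPM (log2 -0.46 and -0.52). All p-values here and in the following paragraphs come from the quasi-likelihood test of edgeR, adjusted over all genes by Benjamini-Hochberg, and levels are means ± SD with n = 3. With a filter of at least 5 CPM in 3 libraries, 2 genes in place of 5 were called lower.

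Few relatives of the 9 genes were tested, and 5 of those 8 were called (62.5%, against 69.2% of all genes). Of 8 other chitinase-family genes, 2 were tested, and Ctbs, a lysosomal chitobiase gene, rose (28.5 ± 0.139 to 34.8 ± 1.46 CPM; log2 0.29, adjusted p = 2.23e-06), while Chid1 had a log2 fold change of 0.05 and did not pass. Of 20 other genes of the cystatin superfamily, 3 were tested and 1 fell: Cst7, encoding cystatin F, an inhibitor of cathepsins in immune cells (13.8 ± 0.404 to 2.94 ± 0.259 CPM; log2 -2.23, adjusted p = 2.35e-20). Cstb, encoding the cytosolic inhibitor cystatin B, was at 646 ± 33.8 and 645 ± 10.3 CPM. Leaving out WT replicate 1 or any KO replicate gave 2 lower calls in place of 1 among these genes. Of 16 other WAP-domain and lysozyme genes, 3 were tested, 2 rose and 1 fell. Wfdc17, a WAP-domain gene induced in activated macrophages, rose from 129 ± 1.42 to 143 ± 1.32 CPM (log2 0.15, adjusted p = 7.01e-06), but stood at -0.01 on the TPM scale. Wfdc21 rose from 1.05 ± 0.176 to 2.70 ± 0.518 CPM, and Lyzl4, a lysozyme-like gene, fell from 10.7 ± 0.431 to 4.09 ± 0.570 CPM.

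Genes that carry acute-phase signals were called in both directions, and the largest changes were falls of low genes. All 27 listed were tested, 17 rose and 7 fell, with a median log2 fold change of 0.17, and on the TPM scale 11 in place of 17 were called higher. For comparison, 34.4% of all tested genes were called higher in KO and 34.9% lower. Among the most abundant, Nfkb1, encoding the p105 and p50 NF-kB proteins, rose from 119 ± 0.516 to 141 ± 0.518 CPM (log2 0.25, adjusted p = 3.10e-10). Stat3, encoding the factor that interleukin-6 activates, rose from 130 ± 1.44 to 146 ± 2.37 CPM (log2 0.17, adjusted p = 1.54e-06), a call that was lost on the TPM scale. Tnfrsf1a, encoding a tumour necrosis factor receptor, had a log2 fold change of 0.13 that turned to -0.01 on that scale, and Jak1 had 0.03 and did not pass. The following were chosen after their values were seen. Cebpd, encoding a C/EBP factor of the acute-phase response, rose from 26.7 ± 1.70 to 51.7 ± 1.82 CPM (log2 0.95), and Cebpa rose from 93.1 ± 1.35 to 143 ± 5.87 CPM (log2 0.62). For Cebpb, the remaining C/EBP gene listed, the libraries of the groups overlapped. Its mean went from 44.5 ± 16.3 to 64.6 ± 9.97 CPM (log2 0.54, adjusted p = 1.62e-04). The call of Cebpb was lost in 5 of 16 alternatives, which were DESeq2 and every limma setting. Of the cytokines, Il1b rose from 4.60 ± 0.0663 to 13.3 ± 0.570 CPM (log2 1.52), Tnf fell from 85.3 ± 3.39 to 51.6 ± 0.596 CPM (log2 -0.72), and Osm fell from 6.11 ± 0.537 to 2.94 ± 0.275 CPM (log2 -1.05). Il6, near 1 CPM, rose from 0.685 ± 0.144 to 1.27 ± 0.363 CPM (log2 0.89, adjusted p = 0.00490). The call of Il6 was lost with DESeq2 and without KO replicate 1. Il1a fell from 8.83 ± 0.00895 to 6.18 ± 1.04 CPM (log2 -0.52). Osmr, the receptor gene for oncostatin M, fell from 1.09 ± 0.244 to 0.0680 ± 0.0778 CPM (67 and 4 counts in all, adjusted p = 1.38e-08), and Lif fell from 1.01 ± 0.153 to 0.289 ± 0.0597 CPM (log2 -1.79, adjusted p = 1.90e-05).

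Of 21 genes for receptors and partners of the 9 proteins, 14 were tested, 12 rose and 2 fell, with a median log2 fold change of 0.42. Among all tested genes, 34.4% were called higher in KO and 34.9% lower. The cathepsins that cystatin C inhibits did not share a direction. Ctsl rose from 3392 ± 16.9 to 4889 ± 92.4 CPM (log2 0.53, adjusted p = 1.86e-26) and Ctss from 4592 ± 33.3 to 5825 ± 133 CPM (log2 0.34, adjusted p = 1.44e-20), whereas Ctsb had a log2 fold change of -0.07 (adjusted p = 1.52e-05). Lgmn, encoding the protease legumain, which cystatin C also inhibits, rose from 1022 ± 17.0 to 1286 ± 9.42 CPM. Fpr2, a receptor for serum amyloid A chosen here after its values were seen, rose from 55.0 ± 0.416 to 166 ± 3.34 CPM (log2 1.60, adjusted p = 4.59e-32). Without WT replicate 1 or WT replicate 2, 1 gene in place of 2 was called lower. Tlr4, a receptor gene of innate immunity chosen after its values were seen, had a log2 fold change of -0.07 (adjusted p = 0.0359). The call of Tlr4 was lost in 7 of 16 alternatives: DESeq2, no low-count filter, and leaving out any WT replicate, KO replicate 2 or KO replicate 3.

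Lcn2, Hp, Slpi and Chil3 are also expressed by other cells that a sort could carry. Of 15 neutrophil markers, 14 were in the table, and their summed level was 870 to 887 CPM in WT and 723 to 743 CPM in KO. Mmp8, a collagenase gene, held most of that sum and fell from 800.0 ± 10.9 to 558 ± 10.7 CPM. Without Mmp8, a sum taken after its value was seen, the other 13 markers had 75.9 to 80.7 CPM in WT and 175 to 178 CPM in KO. Of the 7 tested, 5 rose and 2 fell, and Mcemp1 had the median fold change. Calls over all tested genes were 34.4% higher in KO and 34.9% lower. Csf3r rose from 19.7 ± 0.538 to 63.3 ± 2.13 CPM, S100a8 from 37.9 ± 2.04 to 71.0 ± 1.82 CPM and Mcemp1 from 17.9 ± 0.740 to 35.9 ± 2.03 CPM. The granule genes Elane, Ltf, Camp and Ngp and the neutrophil gene Retnlg, named after their values were seen, were below 1 CPM in both groups, and Ly6g is not analysed here. Of these, Ngp rose (10 counts in all WT libraries and 55 in all KO libraries, log2 2.47, adjusted p = 2.49e-06). The others were not tested: Camp had 6 and 38 counts, Ltf 7 and 20, Retnlg 0 and 4, and Elane 3 and 4. Mpo, another granule gene of the list and likewise named after its values were seen, went the other way. It fell from 43 counts in all WT libraries to 10 in all KO libraries (log2 -2.01, adjusted p = 9.00e-05). S100a9, also named after its values were seen, rose from 0.980 ± 0.148 to 3.14 ± 0.0725 CPM (log2 1.67, adjusted p = 1.19e-09). The part of these differences in the values of Lcn2, Hp, Slpi and Chil3 was not tested. Of 12 other myeloid antimicrobial genes, 11 were in the table, each below 1 CPM in both groups, and of the 3 tested 1 rose and 2 fell. Among 18 lung epithelial markers, 7 were in the table, with a summed level of 2.40 to 2.88 CPM in WT and 1.07 to 1.38 CPM in KO. Most of that sum was Cdh1, the 1 tested, which fell from 1.93 ± 0.0756 to 0.849 ± 0.208 CPM. The other 6 were below 1 CPM in both groups.

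Markers of macrophages and monocytes also differed between the groups. The counts of calls in this paragraph stand beside 34.4% of all tested genes called higher in KO and 34.9% called lower. Of 9 alveolar macrophage markers tested, 4 rose and 5 fell (median log2 -0.16). Marco, a scavenger receptor gene, rose from 172 ± 2.17 to 1137 ± 22.8 CPM (log2 2.72, adjusted p = 2.69e-44), and Lpl, encoding lipoprotein lipase, fell from 1982 ± 15.0 to 1776 ± 11.3 CPM (log2 -0.16). Of 8 general macrophage markers, 6 rose and 1 fell (median log2 0.51), with a summed level of 9860 to 9992 CPM in WT and 14764 to 14902 CPM in KO. Of 10 monocyte markers, 5 rose and 3 fell (median log2 0.17), with a summed level of 132 to 138 CPM in WT and 190 to 191 CPM in KO, and Ly6c2 rose from 15.9 ± 1.36 to 59.5 ± 0.962 CPM. The part of such differences in the values of the 9 genes was not tested. Of 16 genes of alternative activation, the state for which Chil3 is a marker, 9 were tested, and 7 rose and 0 fell (median log2 0.28), with 4 in place of 7 called higher on the TPM scale. Tgm2, the most abundant of them, did not pass (284 ± 4.88 and 277 ± 5.34 CPM, log2 -0.03). Stat6 had a log2 fold change of 0.09, and its call was lost in 5 of 16 alternatives and its direction turned on the TPM scale. Mrc1 rose (log2 0.45). Il4ra, encoding a chain of the interleukin-4 receptor, rose from 134 ± 4.59 to 163 ± 2.67 CPM (log2 0.28, adjusted p = 4.00e-11). The following were chosen after their values were seen. Arg1 was at 0.767 ± 0.0534 and 1.53 ± 0.136 CPM, and Irf4, which did not pass, was at 2.42 ± 0.348 and 2.05 ± 0.511 CPM.

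**Figure D5:**
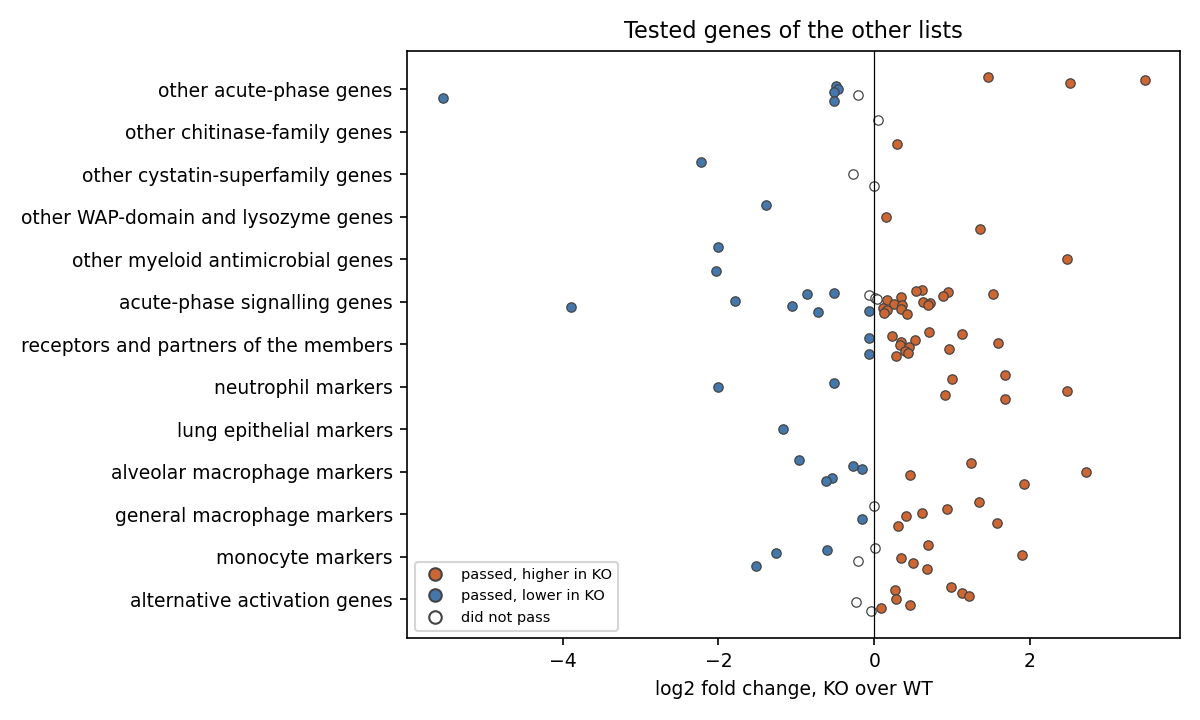
Fitted log2 fold change of every tested gene in each of the 13 gene lists, coloured where the gene passed an adjusted p of 0.05 (orange higher, blue lower in KO) and open where it did not, with height within a row for clarity only. The signalling genes have a median of 0.17 and run from Osmr at -3.89 to Il1b at 1.52, the acute-phase list spreads from Cfb at 3.47 to Ptx3 at -5.54 (both negative ends are fitted values that depend on the small count added, since KO is near 0), and most lists hold genes on both sides. Ptx3 was named after its values were seen.

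Genes beside the 9 were called in both directions. Of 45 protein-coding genes within 100 kb that are not among the 9, 18 were tested, 8 rose and 6 fell, which is 77.8% called, against 69.2% of all tested genes. Their log2 fold changes ran from -0.85 for Gtf2h1, near Saa3, to 0.50 for Naif1, near Lcn2, both named after their values were seen.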

How the data were processed

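PolyA-selected RNA was sequenced in 6 libraries (3 WT, 3 KO), per the labels' protocols. The submitters' processing notes name HISAT, Bowtie2 and GRCm38.p6 without their roles. The counter, annotation and strand use were not given in the sources used here. Deposited by the authors were estimated counts per gene, of which 8.66% to 9.19% per library were not whole and were rounded. FPKM and TPM values were deposited by the authors, per the file headers. The deposited normalised count signal was not used. A deposited heat-map table of log2(FPKM + 1) values lists 6784 genes, including 8 of the 9 (all but Lyz2).

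KO was compared with WT in edgeR 4.0.16 (quasi-likelihood test, TMM, filterByExpr, group only, R 4.3.3) with Benjamini-Hochberg adjustment at 0.05. The filter left 11817 genes and removed 4007. The members and lists were chosen with earlier results of these data known. Named list genes are the up to 4 most abundant with at least 1 CPM, and those changed at least 4-fold with at least 5 CPM in a group. For any other gene the text says that it was picked with its values in view. Intervals and the floor of 3 counts cover counting error only. Counts of near-identical gene copies are uncertain. The promoter window was shortened to 250 bases after a first scan.

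The fit was tested on simulated counts for KO against WT, of which 11686 genes passed the filter: it called 46, 48, 50 and 50 of 50 genes changed 1.25-, 1.5-, 2- and 3-fold, and 11 of the 11617 unchanged genes simulated. Changed genes, as many raised as lowered, were drawn from those with a WT mean of at least 50 counts. The dispersions came from these same libraries, and far fewer genes were changed than were called in the data. These rates therefore need not hold for the real contrast or for genes with fewer counts. Alternatives were RLE scaling, library totals, other filters, the replicate block, leaving out each library, DESeq2 1.42.0, and limma 3.58.1 on log2(FPKM + 1), log2(FPKM + 0.1) and log2(TPM + 1). Python 3.11.15, pandas 2.3.3, SciPy 1.17.1 and matplotlib 3.10.9 were used for tables and plots.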

Additional observations from a re-analysis of the deposited data

How the results depend on the processing

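Over the alternatives, 6917 (DESeq2) to 8321 (replicate block) genes were called, against 8179 in the edgeR fit, and 7755 to 7935 when 1 library was left out. Of the genes called, 49.6% were higher in KO, but 41.3% with library totals and 29.8% on the TPM scale, where the median of all genes was -0.12. The log2 fold changes of 7 of the 9 genes were above 0 in all 16 settings, Lyz1 was at -0.0528 on the TPM scale and above 0 in the other 15, and Lyz2 was above 0 in 4. Chil1 ran from 5.61 with limma on log2(FPKM + 1) to 10.3 without WT replicate 1. The ratio of the summed share was 1.32 on the TPM scale, against 1.19.

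Counts of list genes that moved by over 1.5 times were as follows, and the cause was not tested except that a stricter filter tests fewer genes. With at least 5 CPM in 3 libraries, lower calls were 2 for other acute-phase genes, 0 for antimicrobial, 1 for neutrophil and 0 for epithelial genes, and higher calls were 1 for WAP-domain, 0 for antimicrobial and 3 for neutrophil genes. Without a filter, 4 cystatin genes were lower, and 3 antimicrobial and 8 neutrophil genes were higher. With library totals, 2 cystatin, 2 general macrophage and 1 alternative activation genes were lower. With DESeq2, 3 cystatin genes were lower and 2 antimicrobial genes higher. With limma on log2(FPKM + 1) and log2(FPKM + 0.1), lower calls were 3 cystatin, 0 antimicrobial, 1 neutrophil, 0 epithelial, 2 general macrophage, 1 monocyte and 1 alternative activation genes, and higher calls were 1 WAP-domain and 2 antimicrobial genes. Without its filter, limma on log2(FPKM + 1) called 3 cystatin, 4 receptor, 2 general macrophage and 1 alternative activation genes lower, and 5 antimicrobial and 9 neutrophil genes higher. On log2(TPM + 1), it called 3 cystatin, 1 antimicrobial, 1 neutrophil, 0 epithelial, 2 general macrophage and 1 alternative activation genes lower, and 1 WAP-domain, 2 antimicrobial, 11 signalling and 4 alternative activation genes higher. With 1 library left out, lower calls ran from 1 to 2 for cystatin and 1 to 3 for receptor genes, and higher calls from 1 to 2 for antimicrobial genes (2 without any single WT library or without KO replicate 2).

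Same-numbered libraries correlated only weakly, at 0.0334, 0.0265 and 0.0213 in their deviations, although each correlated best with its own number. With so few libraries per group, these values cannot decide whether replicate numbers pair the samples, and the labels do not say. The replicate block called 8321 genes. Depth limits Chil1 in WT and list genes below 1 CPM.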
